A study of Mus musculus with 7 samples.

Results

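The genes described here are 43 regulators of pre-mRNA splicing, among them Tardbp, which encodes the RNA-binding protein TDP-43. They were chosen by name and found by Ensembl gene ID, and stand among 13554 genes with a listed transcript start or end. By role they fall into 16 genes for hnRNPs (proteins that coat nascent RNA), the related FET protein Ewsr1 and TDP-43, 12 for SR and Tra2 proteins (serine- and arginine-rich activators of exons), 11 for regulators tied to particular tissues, and 4 for kinases and other factors.

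All 7 libraries came from wild-type mouse embryonic stem cells of 1 line, B6G-2, and every culture passed through the same steps. Embryoid bodies were grown for 6 days, neural progenitors were raised in RHB-A medium with bFGF and EGF until day 14, and the cells were then moved to BrainPhys with B27 to form nerve and glial cells. One culture was the control, and each of the other 6 was exposed for 1 day to chlorpyrifos, DDT, rotenone, carbaryl, deltamethrin or imidacloprid. The labels give neither dose nor vehicle, and although they name the tissue as brain, the cells were made in a dish. There was 1 library per group, so no difference below has a replicate check or a p-value.

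Splicing regulators are among the best-studied examples of genes that control their own output. An SR, Tra2 or hnRNP protein binds its own pre-mRNA and drives in an exon, or leaves in an intron, that brings an early stop codon, and nonsense-mediated decay then removes the RNA. TDP-43 binds the 3' untranslated region of its own mRNA and promotes splicing there, which lowers the stable message. In the developing nervous system the PTBP, RBFOX, NOVA, MBNL and SRRM4 proteins set which exons neurons and glia use.

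The files list events of assembled transcripts (a start, an end, a skipped exon, a retained intron), each with an FPKM, an expression level of the form that carries it, scaled to length and library size. A gene's start total is the summed FPKM of its distinct starts, and its end total that of its distinct ends. The gene value is the mean of both where their averages over the 7 libraries lay within 0.3 of each other (log2), which held for 19 of the 43 genes. In 13 the 2 totals disagreed, 8 had usable starts but no usable ends, 2 (Hnrnpa1 and Hnrnpab) the reverse, and the lines of Hnrnpm carried the ID of the neighbouring gene March2. Log2 fold changes are on the log2(FPKM + 1) scale, against the control library.

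The libraries listed 95968 to 97840 lines, of which 826 to 860 distinct events belonged to the 43 genes. Of the progenitor markers, Vim (986 to 1221 FPKM) and Nes (165 to 206) were high, Sox2 stood at 16.4 to 28.3, and Pax6 (8.77 to 11.7) and Hes5 (6.10 to 9.98) were lower. Of the neuronal markers, Map2 was at 132 to 157, Stmn2 at 20.02 to 51.5, Dcx at 22.7 to 27.0 and Rbfox3 at 1.54 to 3.78. Of the oligodendrocyte lineage, Olig2 was at 110 to 169, and Sox10 and Mbp at most at 2.11 and 1.68. Of the astrocyte markers, Slc1a3 (86.3 to 120) and Aldh1l1 (27.8 to 43.6) were present, while Gfap, Aqp4 and S100b, which mark mature astrocytes, reached at most 0.678, 0.870 and 0.304. The pluripotency genes Pou5f1 and Nanog reached at most 0.637 and 0.150. The 3 mesenchyme markers stood at 1.76 to 6.98 FPKM. Fabp7 of the progenitor markers, Tubb3 and Elavl3 of the neuronal ones and Pdgfra of the oligodendrocyte lineage had no listed start or end.

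Levels of the splicing regulators spanned a wide scale. Hnrnpa2b1, a core hnRNP, had the highest gene value of the 19, with 601 to 673 FPKM, and the end total of Hnrnpab, a single-strand nucleic acid binder, was close to it at 631 to 659. Rsrc1, an arginine- and serine-rich splicing factor, stood at 2.39 to 13.6, and Srrm4, which drives neuronal microexons, had a start total of at most 1.78. The 19 genes varied more over the 7 libraries than genes in general: their range had a median of 0.58 on the log2 scale, against 0.37 for all 6032 genes measured the same way. Of the 19 genes, 4 (21.1%) had a range of at least 1, namely Tardbp, Rsrc1, Srsf1 and Hnrnpk, against 9.18% of all genes. The 2 sets differ in level, with a median of the mean FPKM of 71.9 for the 19 genes and 11.3 for all genes. Ranges were taken on log2(FPKM + 1), which narrows those of low genes, and genes of like level were not compared.

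**Figure D1:**
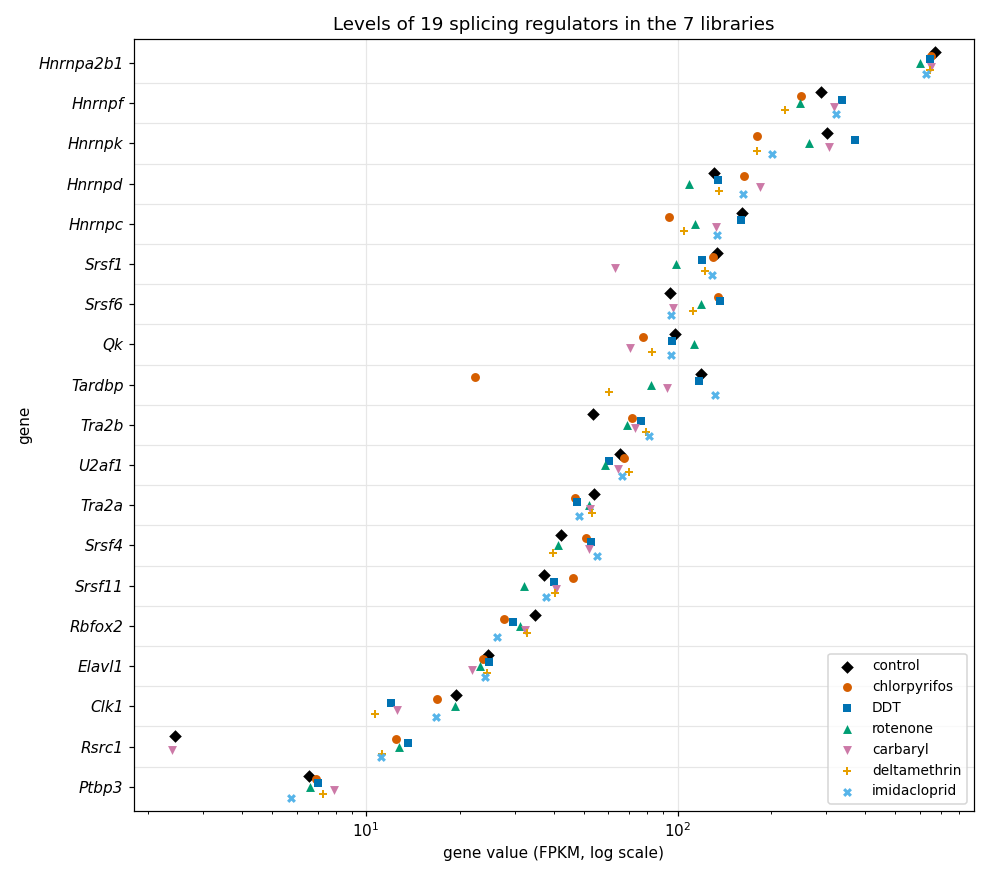
Gene values of the 19 splicing regulators whose start and end totals agreed, in FPKM on a log axis, with 1 marker per library and genes ordered by mean. Tardbp stands apart in the chlorpyrifos library (22.4 FPKM), Rsrc1 in control and carbaryl (2.44 and 2.39), and Srsf1 in carbaryl (63.2).

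Against control, 1 or 2 of the 19 genes differed by 2-fold or more in each exposed library. In chlorpyrifos 2 did, Tardbp lower and Rsrc1 higher, where 1.58% of all genes passed that size. In DDT the 1 gene was Rsrc1 (all genes 1.69%), as in rotenone (1.49%), deltamethrin (1.66%) and imidacloprid (1.58%). In carbaryl the 1 gene was Srsf1, which was lower (2.01%). These counts are 10.5% of the 19 genes in chlorpyrifos and 5.26% in each other exposed library. Each is above the share of all genes but rests on 1 or 2 genes. The median log2 fold change of the 19 genes was -0.044 in chlorpyrifos, 0.012 in DDT, -0.15 in rotenone, -0.022 in carbaryl, -0.061 in deltamethrin and -0.023 in imidacloprid. Between 2 exposed libraries, 0 to 3 of the 19 genes differed by 2-fold or more, with a median of 1 over the 15 such pairs, where 1.58% to 1.99% of all genes did. All 6 comparisons share the 1 control library, so the 5 libraries in which Rsrc1 was higher are not 5 separate observations. In bulk RNA a lower level of a gene and fewer cells that use it cannot be told apart.

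Tardbp lies at chr4:148612382-148627019 (GRCm38, minus strand). Its start total was 117 FPKM in control, 23.7 in chlorpyrifos, 119 in DDT, 102 in rotenone, 98.2 in carbaryl, 64.3 in deltamethrin and 130 in imidacloprid. Its end total was 121, 21.1, 115, 62.5, 86.5, 55.9 and 134 in the same order. Chlorpyrifos was lowest by both, deltamethrin came next, and DDT and imidacloprid stood near control. The log2 fold change of the gene value was -2.36 in chlorpyrifos and -0.97 in deltamethrin, and between -0.53 and 0.15 in the other exposed libraries.

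A pair of measures from inside the gene gave a smaller gap in chlorpyrifos and none of this size in deltamethrin. The forms that include or skip the fifth exon (chr4:148619184-148619354) summed to 121 FPKM in control, 43 in chlorpyrifos, 98.9 in DDT, 106 in rotenone, 63.5 in carbaryl, 107 in deltamethrin and 53.7 in imidacloprid. The forms of the last coding exon, cut or uncut as described next, summed to 136, 43.1, 139, 90.5, 114, 101 and 151. Chlorpyrifos was the lowest library by all 4 measures, with log2 fold changes of -1.47 at the fifth exon and -1.63 at the last coding exon. Deltamethrin stood at -0.18 and -0.43 there, so its low level showed only in the starts and ends. Imidacloprid was second lowest at the fifth exon and highest by the other measures.

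The gap between chlorpyrifos and control lay in 1 class of transcript end. The end at chr4:148616725-148616844 is annotated only in transcripts classed as targets of nonsense-mediated decay, in which an intron of the 3' untranslated region has been removed. It carried 103 FPKM in control, 0.482 in chlorpyrifos, 92.6 in DDT, 45.0 in rotenone, 61.3 in carbaryl, 55.4 in deltamethrin and 105 in imidacloprid. The ends annotated in protein-coding transcripts summed to 18.3, 20.6, 22.7, 17.4, 25.2, 0.490 and 28.5 in the same order. Chlorpyrifos thus stood near control in the second class and was nearly without the first, while deltamethrin was nearly without the second. The second class made up 97.7% of the end total in chlorpyrifos, 0.876% in deltamethrin and 15.1% to 29.2% elsewhere. The end of the full-length mRNA, whose last exon spans chr4:148612382-148618791 and holds 528 of the 1242 coding bases, was listed in 0 lines, so that message is outside both classes.

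Starts of Tardbp were as uneven. The start at chr4:148626681-148626996, which the full-length mRNA uses, carried 34.3 FPKM in control, 0.0160 in chlorpyrifos, 6.70 in DDT, 37.0 in rotenone, 6.57 in carbaryl, 14.6 in deltamethrin and 7.40 in imidacloprid. An internal start at the fifth exon carried 37.6, 0.160, 48, 21.4, 59.6, 1.78 and 105. Chlorpyrifos was lowest at both, and the 2 starts did not vary together in the other libraries.

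Inside the last coding exon, 3 splice donors cut the coding sequence before its stop codon, upstream of most of the glycine-rich C-terminal region of TDP-43. The donor at 148618665 was used in 120 FPKM in control, 21.1 in chlorpyrifos, 86.3 in DDT, 55.7 in rotenone, 27.0 in carbaryl, 44.9 in deltamethrin and 19.9 in imidacloprid. The form left uncut, which counts as a retained intron, was listed in carbaryl (57.2 FPKM) and imidacloprid (105) and in no other library. There it made up 50.03% and 69.3% of the cut and uncut forms. The 3 cut forms together were 57.1 in carbaryl and 46.5 in imidacloprid, close to the 43.1 of chlorpyrifos, against 90.5 to 139 in the other 4 libraries.

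**Figure D2:**
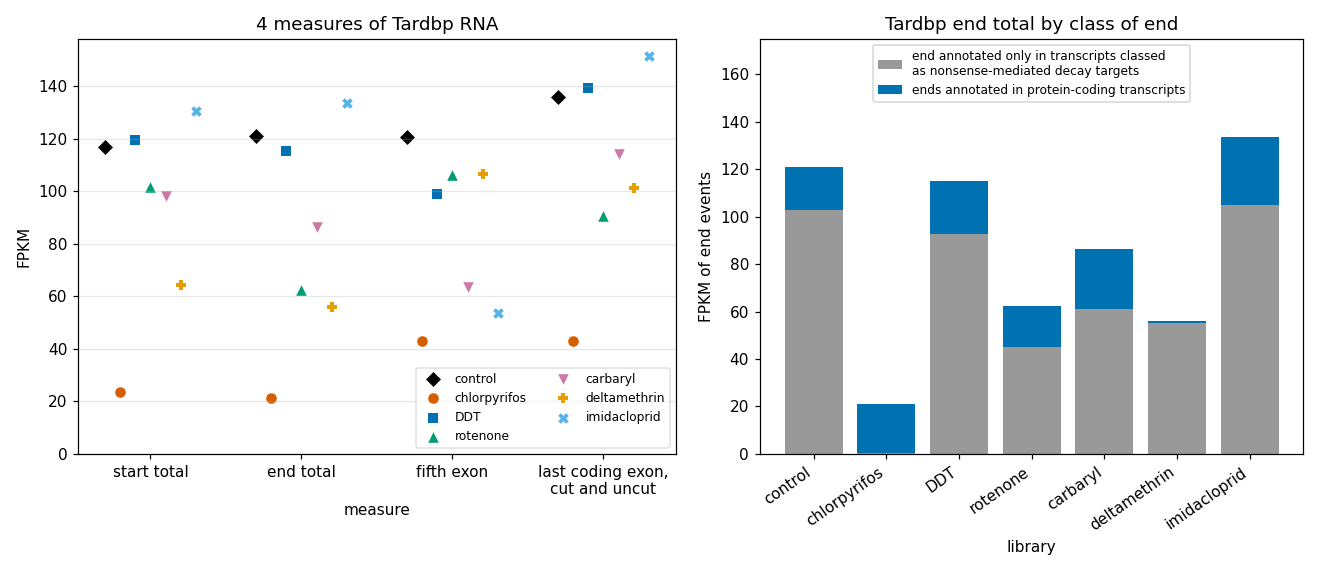
Left, 4 measures of Tardbp RNA in FPKM, with 1 marker per library: start total, end total, forms that include or skip the fifth exon, and cut plus uncut forms of the last coding exon. Right, the end total stacked by class of end. Chlorpyrifos is lowest in all 4 measures, and its bar consists almost wholly of ends annotated in protein-coding transcripts (20.6 of 21.1 FPKM).

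Exons that TDP-43 is known to act on were read in the same libraries. The 99-base exon of Sort1, the sortilin receptor gene, which is included more when TDP-43 is removed, had a share of 36.2% in control and 37.5% in chlorpyrifos, within a range of 35.2% to 45.8% over the 7 libraries. The 87-base exon of Poldip3, which is skipped more when TDP-43 is removed, stood at 68.2% in control, 68.7% in chlorpyrifos and 80.1% to 96.2% in the others. The 60-base exon of Eif4h was at 94.7% in control, 93.9% in chlorpyrifos and 83.3% to 95.8% in the others. In these 3 exons chlorpyrifos and control differed by less than 2 points, while Poldip3 in DDT, carbaryl, deltamethrin and imidacloprid stood above 91%. Other exons of the listed target genes did differ: a 53-base exon of Dnajc5 stood at 65.8% in control and 51.0% in chlorpyrifos, and Madd exons of 54, 63 and 70 bases at 74.6%, 100% and 0% in control and 33.6%, 78.2% and 88.7% in chlorpyrifos. The Madd exons had mean sums of 1.69 to 4.46 FPKM. Of 10 exons in 5 target genes, 3 differed from control by 20 points or more in chlorpyrifos (30%, against 17.7% of exons of all genes), and 3 or 4 in each other exposed library.

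Among the other hnRNP genes no gene value differed from control by 2-fold. Hnrnpc, which binds uridine tracts, was highest in control at 162 FPKM and stood at 93.6 in chlorpyrifos, 160 in DDT, 114 in rotenone, 133 in carbaryl, 105 in deltamethrin and 134 in imidacloprid. Hnrnpk, which binds cytidine-rich RNA, stood at 303 in control, 180 in chlorpyrifos, 372 in DDT, 264 in rotenone, 306 in carbaryl, 180 in deltamethrin and 202 in imidacloprid. By gene value, chlorpyrifos and deltamethrin were the lowest libraries in both genes, as in Tardbp. By the start total of Hnrnpk, however, deltamethrin (174) and imidacloprid (190) were the lowest, below chlorpyrifos (221). Hnrnpd (AUF1, which binds AU-rich elements) ranged from 109 to 183, Hnrnpf from 222 to 337 and Hnrnpa2b1 as given above.

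Hnrnpa3, an mRNA-packaging relative of Hnrnpa2b1, had a start total only. It was 95.3 FPKM in control, 41.8 in chlorpyrifos, 48.1 in DDT, 45.4 in rotenone, 46.1 in carbaryl, 45.5 in deltamethrin and 37.8 in imidacloprid. Control stood above the 6 exposed libraries, which lay close together. With no end to check it against, no fold was counted for this gene. The remaining hnRNP genes with 1 usable total were steadier: the end total of Hnrnpa1 ran from 353 to 550, and the start totals of Hnrnph1 from 223 to 273, Hnrnpr from 59.3 to 73.4 and Hnrnpu from 124 to 136. Hnrnpm, read by the coordinates of its annotated starts, ran from 117 in rotenone to 197 in control. In Ewsr1, Hnrnpdl and Hnrnpl, whose totals disagreed, the start totals ran from 54.5 to 87.2, from 69.7 to 101 and from 171 to 197.

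Among the SR genes Srsf1, the founding SR protein, was lower in carbaryl. Its gene value was 134 FPKM in control, 130 in chlorpyrifos, 120 in DDT, 98.9 in rotenone, 63.2 in carbaryl, 123 in deltamethrin and 129 in imidacloprid, a log2 fold change of -1.07 in carbaryl (-0.97 on start totals alone, under 2-fold). As in Tardbp under chlorpyrifos, the difference lay mostly in 1 end: the end at chr11:88050977-88053755, annotated in nonsense-mediated decay and retained-intron transcripts, carried 54.6 in control, 0.616 in carbaryl and between 31.1 and 44.3 under the remaining insecticides. The main end of the coding transcripts carried 82.2 in control, 57.1 in carbaryl and 59.3 to 86.3 in the others.

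Srsf6 and Tra2b each had a listed exon of the kind that serves self-regulation. Self-regulation itself was not tested. Srsf6 carries a 268-base exon (chr2:162932815-162933082) and Tra2b a 276-base exon (chr16:22258986-22259261) that are annotated only in nonsense-mediated decay transcripts, here called decay exons. The inclusion share, the percent of inclusion plus skipping FPKM, was for Srsf6 6.95% in control, 55.5% in chlorpyrifos, 60.9% in DDT, 55.4% in rotenone, 6.20% in carbaryl, 42.2% in deltamethrin and 9.64% in imidacloprid. The 7 libraries fell into 2 sets, with control, carbaryl and imidacloprid under 10% and the other 4 above 42%. The Srsf6 gene value followed the same sets: 94.3 in control, 96.6 in carbaryl and 95.5 in imidacloprid, against 112 to 137 in the other 4. The form without the decay exon ran the other way, at 87.8 in control, 90.6 in carbaryl and 86.3 in imidacloprid, and 51.6 to 64.9 in the other 4.

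For Tra2b the share was 20.2% in control, 35.4% in chlorpyrifos, 49.2% in DDT, 38.9% in rotenone, 41.2% in carbaryl, 44.9% in deltamethrin and 17.8% in imidacloprid. The Tra2b gene value was lowest in control, at 53.7 FPKM, and 68.7 to 80.9 in the exposed libraries. The form without the decay exon was 42.7 in control, 38.7 to 46.1 in 5 exposed libraries and 66.3 in imidacloprid, so the higher total of those 5 lay mostly or wholly in the form with the exon. The paralog Tra2a was steady at 46.7 to 53.9. These 2 exons were singled out after their values were seen.

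**Figure D3:**
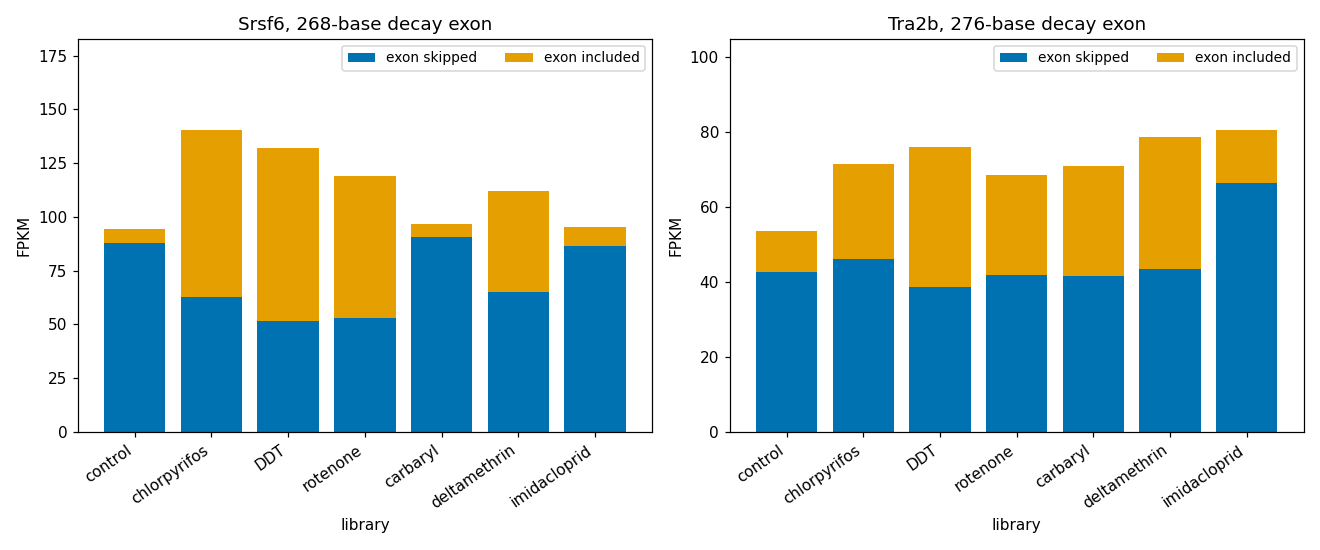
FPKM of the forms that skip (blue) and include (orange) the decay exon of Srsf6 (left) and Tra2b (right), stacked for each library. In Srsf6 the skipping form was 51.6 to 64.9 FPKM in the 4 libraries with high inclusion and 86.3 to 90.6 in the other 3. In Tra2b it was 38.7 to 46.1 in all libraries but imidacloprid (66.3).

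The decay exon of Srsf3, a 456-base exon (chr17:29039454-29039909), stayed low, with shares from 0.00706% in deltamethrin to 16.4% in carbaryl. The start total of Srsf3 was 118 to 154 FPKM, and that of Srsf7, a partner in mRNA export, 115 to 136. Srsf10, a repressor of splicing under heat shock, had a start total of 20.03 in control, 50.8 in chlorpyrifos, 44.4 in DDT, 43 in rotenone, 37.8 in carbaryl, 48.9 in deltamethrin and 27.8 in imidacloprid. Control was the lowest library there. Srsf4 and Srsf11 had gene values of 39.8 to 55.2 and 32.2 to 46.1, and the start totals of Srsf2, Srsf5 and Srsf9, whose ends disagreed, ran from 193 to 268, from 91.3 to 142 and from 63.6 to 73.0. The end total of Srsf2 was 148 in control and 16.8 to 75.2 in the exposed libraries.

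Among the kinases and other factors, Rsrc1 (chr3) stood at either of 2 levels. Its gene value was 2.44 FPKM in control, 12.5 in chlorpyrifos, 13.6 in DDT, 12.7 in rotenone, 2.39 in carbaryl, 11.3 in deltamethrin and 11.1 in imidacloprid. Control and carbaryl were about alike, and the other 5 stood 1.82 to 2.09 higher on the log2 scale. A 126-base coding exon of Rsrc1 (chr3:66996465-66996590) divided the libraries in the same way, with a share of 29.6% in control and 7.34% in carbaryl and of 94.5% to 98.9% in the others. The forms that skip it carried 1.37 in control, 1.48 in carbaryl and 0.123 to 0.694 in the others, so the gap in the gene value lay in the forms that include it (0.577 and 0.117 against 10.6 to 12.7). U2af1, the small subunit that reads the 3' splice site, was steady at 58.6 to 69.9. Clk1, a kinase of SR proteins, was highest in control at 19.5 and lowest in deltamethrin at 10.7, and Clk4, whose totals disagreed, had starts of 15.3 to 29.1.

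The tissue-tied regulators with a gene value differed little. Qk (quaking, which guides glial maturation) ran from 70.2 to 113 FPKM, Rbfox2 from 26.4 to 34.7, Elavl1 (HuR) from 21.8 to 24.8 and Ptbp3 from 5.73 to 7.91. Ptbp1, the repressor of neuronal exons in progenitors, had a start total of 80.8 to 99.7, and Ptbp2, its neuronal successor, one of 29.7 to 39.8. Nova1 had starts of 4.46 to 8.25, Mbnl1 5.73 to 12.7 and Mbnl2 3.52 to 8.59. Celf1, which opposes MBNL proteins at shared exons, had an end total of 5.82 in control, 37.0 in chlorpyrifos, 34.2 in DDT, 29.5 in rotenone, 35.6 in carbaryl, 36.7 in deltamethrin and 4.38 in imidacloprid. Its start total was 28.8 in control, 20.1 in imidacloprid and 41.3 to 58.0 in the other 5, so control and imidacloprid were lowest by both totals.

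Control lay outside the range of the 6 exposed libraries in 8 of the 19 genes. It was highest in 6 (Hnrnpa2b1, Hnrnpc, Srsf1, Tra2a, Rbfox2 and Clk1) and lowest in 2 (Srsf6 and Tra2b), 42.1% in all, where 26.9% of all genes had control outside the range, 13% above and 13.9% below. In all of these but Rbfox2 and Tra2b the nearest exposed library lay within a log2 fold change of 0.05.

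By inclusion share, skipped exons of these genes differed from control somewhat more often than those of other genes in each of the 6 comparisons. These comparisons share 1 control. With inclusion taken over the gene's start total instead, the excess held only in chlorpyrifos. The 43 genes had 97 exons with both forms listed and a mean sum of at least 1 FPKM, in 37 genes. Against control the share differed by 20 points or more in 21 of 95 exons in chlorpyrifos (22.1%, all genes 17.7%), 21 of 95 in DDT (22.1%, all genes 17.5%) and 19 of 93 in rotenone (20.4%, all genes 16.8%). In carbaryl it did in 20 of 94 (21.3%, all genes 17.8%), in deltamethrin in 21 of 94 (22.3%, all genes 17.9%) and in imidacloprid in 22 of 94 (23.4%, all genes 17.6%). Over exons with a mean sum of at least 5 FPKM the share was 19.05% to 20.2% for the 84 exons of these genes and 11.7% to 12.4% for all genes. Between 2 exposed libraries, 12 to 21 of 93 to 96 exons differed as much, with a median of 17 over the 15 pairs. The median share was 17.9%, against 16.9% for exons of all genes in the same pairs. Exons of 1 gene share their transcripts, so these counts are not of independent exons.

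Sequences of 9 coding exons are shown, 3 pairs because they are matching exons of related genes whose shares differ or stay alike, and 3 more because their shares ranged by over 70 points. They are cut from the GENCODE M21 transcripts on GRCm38 and run 5' to 3' on the transcript strand. In the 3 pairs, capitals mark bases that are the same at that position in both genes, and the last 3 sequences have no partner and no capitals.
Ptbp1, chr10:79862014-79862047: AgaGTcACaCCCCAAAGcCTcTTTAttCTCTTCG
Ptbp2, chr3:119724612-119724645: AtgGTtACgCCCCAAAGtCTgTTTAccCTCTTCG
Mbnl1, chr3:60614683-60614736: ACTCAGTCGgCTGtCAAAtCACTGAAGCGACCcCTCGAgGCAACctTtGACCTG
Mbnl2, chr14:120395712-120395765: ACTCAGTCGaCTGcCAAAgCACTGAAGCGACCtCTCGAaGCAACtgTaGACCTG
Clk1, chr1:58420121-58420211: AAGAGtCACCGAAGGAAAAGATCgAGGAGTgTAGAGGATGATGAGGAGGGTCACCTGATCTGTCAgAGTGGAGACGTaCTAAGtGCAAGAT
Clk4, chr11:51273078-51273168: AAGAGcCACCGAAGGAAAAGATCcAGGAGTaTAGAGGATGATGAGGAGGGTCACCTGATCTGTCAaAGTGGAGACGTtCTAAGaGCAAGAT
Ptbp3, chr4:59546149-59546182: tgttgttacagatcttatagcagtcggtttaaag
Hnrnpd, chr5:99976534-99976590: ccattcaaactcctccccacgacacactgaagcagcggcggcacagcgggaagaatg
Ewsr1, chr11:5091460-5091477: tagaagggaccagtacag

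The 34-base exons of Ptbp1 and Ptbp2 match at 26 of 34 bases (76.5%) and were both included almost always. Skipping of either shifts the reading frame, and PTBP proteins are known to promote that skipping. The share was 98.3% to 100% in Ptbp1 and 96.2% to 99.9% in Ptbp2. Ptbp3 has a 34-base exon of another sequence, and it varied widely: 31.1% in control, 31.6% in chlorpyrifos, 51.5% in DDT, 15.2% in rotenone, 83.4% in carbaryl, 31.3% in deltamethrin and 5.10% in imidacloprid. Carbaryl was the high library and imidacloprid the low one, while the gene value of Ptbp3 moved by less than 1.5-fold.

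The 78-base exon of Ptbp1 (chr10:79860117-79860194), which lengthens the linker between RNA-binding domains and is known to strengthen repression, divided the libraries. Its share was 87.5% in control, 79.8% in chlorpyrifos, 17.5% in DDT, 38.3% in rotenone, 36.6% in carbaryl, 84.0% in deltamethrin and 21.4% in imidacloprid. Control, chlorpyrifos and deltamethrin stood at or above 79.8%, and the other 4 at or below 38.3%. A 79-base intron of Ptbp1 (chr10:79859523-79859601), chosen after its values were seen, was retained in 31.3%, 41.8%, 0.150%, 9.92%, 0.00530%, 25.6% and 0.0214% in the same order, with the same 3 libraries high.

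The 54-base exons of Mbnl1 and Mbnl2, which carry a nuclear localisation signal, match at 46 of 54 bases (85.2%). The Mbnl2 exon was included in 28.1% in control, 100% in chlorpyrifos, 66.4% in DDT, 95.2% in rotenone, 81.9% in carbaryl, 99.6% in deltamethrin and 70.5% in imidacloprid. The Mbnl1 exon stood at 74.4%, 95.1%, 97.8%, 97.8%, 66.0%, 92.9% and 90.1% in that order. In Mbnl2 control was lowest, and in Mbnl1 carbaryl was, with control next. A 36-base exon of Mbnl1 (chr3:60621423-60621458) was included in 85.7% in control, 11.6% in carbaryl and 93.1% to 100% in the other 5.

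The 91-base exons of Clk1 and Clk4 match at 85 of 91 bases (93.4%), and skipping either removes the kinase domain by a frame shift. In Clk4 the share was 100% in control, 49.3% in chlorpyrifos, 59.1% in DDT, 78.4% in rotenone, 50.4% in carbaryl, 14.9% in deltamethrin and 58.4% in imidacloprid. In Clk1 it was 55.6%, 41.3%, 85.3%, 51.3%, 65.2%, 74.9% and 51.7% in that order. The 2 exons did not vary together: deltamethrin was lowest in Clk4 and second highest in Clk1. A 161-base exon of Clk4 (chr11:51267171-51267331) ranged from 35.7% in rotenone to 100% in control and deltamethrin.

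Hnrnpd makes 4 proteins by use of a 57-base and a 147-base exon, both multiples of 3. The 57-base exon was included in 90.9% in control, 55.7% in chlorpyrifos, 73.3% in DDT, 20.005% in rotenone, 17.1% in carbaryl, 33.2% in deltamethrin and 51.1% in imidacloprid. The 147-base exon (chr5:99963731-99963877) was included in 22.3%, 45.7%, 17.5%, 81.6%, 44.7%, 23.4% and 46.5% in that order. Control was highest in the first exon, and rotenone was highest in the second. The 18-base exon of Ewsr1, an RNA-binding transcription and splicing factor, was included in 79.5% in control, 3.24% in chlorpyrifos, 65.8% in DDT, 27.5% in rotenone and 71.0% to 74.0% in the other 3. Chlorpyrifos and rotenone were low there, on sums of at least 54.2 FPKM in each library.

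A pair of exons had wide shares on thin support. A 497-base exon of Hnrnpl (chr7:28810672-28811168) ran from 0% to 100%, but its inclusion and skipping forms summed to as little as 0.00254 FPKM in chlorpyrifos. An unannotated 38-base exon of Ewsr1 (chr11:5079485-5079522) had no inclusion form in control, where the skipping form was 0.0408 FPKM, and 99.4% to 99.8% in the exposed libraries. Neither is read as a difference here. At the other extreme, the 120-base exon of Hnrnpa2b1 stayed within 62.7% to 77.3% and the 141-base exon of Hnrnpab within 41.5% to 44.0%.

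**Figure D4:**
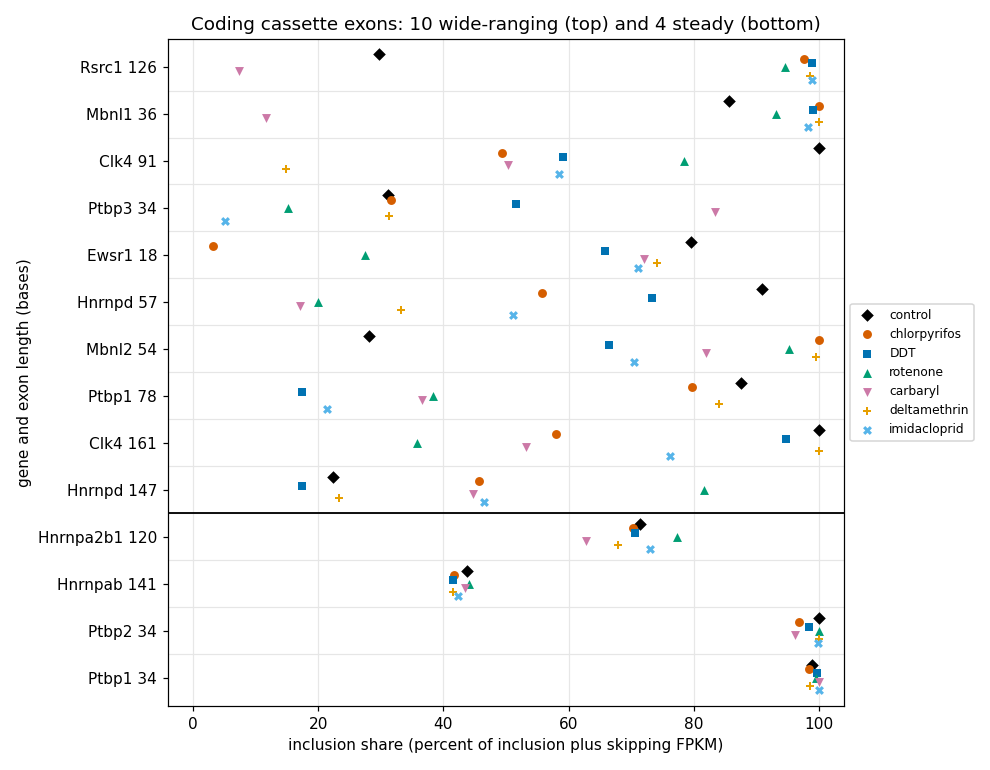
Inclusion share of 14 coding exons, as percent of inclusion plus skipping FPKM, with 1 marker per library and exons named by gene and length in bases. The 10 exons above the line spread over 64.2 to 91.6 points, and the 4 below it over 1.65 to 14.6 points.

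Over exons with a mean sum of at least 5 FPKM and at least 1 FPKM in each library, the share ranged by 20 points or more in 30 of 81 (37.0%), against 33.5% of 6825 exons of all genes. Of 26 or 27 exons in 10 genes that PTBP proteins are known to act on, 2 to 5 differed from control by 20 points or more. That was 7.41% in deltamethrin to 18.5% in chlorpyrifos, against 16.8% to 17.9% for exons of all genes. Only chlorpyrifos stood above all genes (17.7%). The 24-base exon of Flna, the actin crosslinker filamin A, was included in 83.7% in control and 38.5% to 66.8% in the exposed libraries. The 54-base exon of Clta, clathrin light chain, stayed at 5.74% to 11.3%.

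Retained introns of these genes differed from control more often than those of all genes in 4 of the 6 comparisons, and less often in DDT and deltamethrin. The 43 genes had 54 introns with both forms listed and a mean sum of at least 1 FPKM, in 18 genes. The share differed from control by 20 points or more in 9 of 44 in chlorpyrifos (20.5%, all genes 16.3%), 6 of 47 in DDT (12.8%, all genes 15.8%) and 9 of 49 in rotenone (18.4%, all genes 15.4%). It did in 14 of 49 in carbaryl (28.6%, all genes 16.6%), 7 of 48 in deltamethrin (14.6%, all genes 16.2%) and 16 of 50 in imidacloprid (32.0%, all genes 15.5%). In the 2 libraries with most, 6 of the introns were overlapping pairs of Tardbp that share the 1 uncut form described above. Without Tardbp the counts were 8 of 43 in carbaryl (18.6%) and 10 of 44 in imidacloprid (22.7%). Between 2 exposed libraries, with Tardbp included, 4 to 16 of 43 to 52 introns differed as much. The median over the 15 such pairs was 12 introns, or 24.4%, against 14.6% for introns of all genes. With Tardbp included, the excess was thus not particular to comparisons with control. No count of these pairs without Tardbp is given here, so the same cannot be said of the other genes. Over introns with a mean sum of at least 5 FPKM and at least 1 FPKM in each library, the share ranged by 20 points or more in 13 of 33 (39.4%), none of the 13 in Tardbp, against 25.6% of introns of all genes.

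Among those 13 introns the widest ranges were in Srsf7, Hnrnpdl, Clk4 and Ewsr1. A 1410-base intron of Srsf7 (chr17:80202745-80204154) had a retained share of 100% in chlorpyrifos, 53.9% in rotenone and 42.4% in deltamethrin. It was 0% in the other 4 libraries, on sums of at least 5.001 FPKM. The spliced form of this pair was minor, at 0.00167 FPKM in chlorpyrifos. Against the more abundant spliced forms of the overlapping introns of 1377 and 1386 bases, the same retained form made up 8.28% to 12.6% in chlorpyrifos, rotenone and deltamethrin. A 364-base intron of Hnrnpdl (chr5:100035740-100036103) was retained in 84.5% in control and 0% in the 6 exposed libraries. A 532-base intron of Ewsr1 (chr11:5078953-5079484) was retained in 7.72% in control, 80.3% in chlorpyrifos, 25.7% in DDT, 36.9% in rotenone, 40.3% in carbaryl, 17.9% in deltamethrin and 27.5% in imidacloprid. By share, chlorpyrifos was thus the extreme library for both the 18-base exon and this intron of Ewsr1. For the intron its high share came with little spliced form, 3.15 FPKM against at least 28.8 elsewhere. The retained form itself did not peak there. It was 12.8 FPKM in chlorpyrifos, above control (6.30) but below the rest, which ran from 13.2 (deltamethrin) up to 40.9 (carbaryl). Both forms summed to 16.0 FPKM in chlorpyrifos, where the Ewsr1 start total was 87.2. A 2150-base and an 829-base intron of Srsf3 and a 1059-base intron of Srsf2 also swung from 0% to 100%, but in each some library had a sum under 0.04 FPKM.

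Clk1 and Clk4 are known to hold back introns around the 91-base exon in a nuclear reserve of unspliced RNA. The 387-base intron after that exon in Clk1 (chr1:58419734-58420120) was retained in 30.1% in control, 57.1% in chlorpyrifos, 19.5% in DDT, 24.1% in rotenone, 21.6% in carbaryl, 36.7% in deltamethrin and 28.5% in imidacloprid. The matching 391-base intron of Clk4 (chr11:51273169-51273559) was retained in 0%, 20.96%, 14.4%, 0%, 29.0%, 79.0% and 31.6% in that order. Chlorpyrifos was the high library in Clk1 and deltamethrin in Clk4. These introns of Hnrnpdl, Ewsr1, Clk1 and Clk4 were chosen after their values were seen.

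Few other genes of the splicing pathway differed by 2-fold. Of 42 core spliceosome genes 31 had a gene value, and against control 0 or 1 of them was higher and 1 or 2 lower by 2-fold in each exposed library (3.23% to 9.68% of the 31, against 1.49% to 2.01% of all genes), with medians between -0.070 and -0.0046 on the log2 scale. Snrpd2, a Sm ring protein, was 180 FPKM in control and 53.6 to 85.5 in the exposed libraries. Lsm5, of the ring on U6 RNA, stood at 5.03 to 7.999 in control, chlorpyrifos, rotenone and deltamethrin and at 27.2 to 32.7 in DDT, carbaryl and imidacloprid. Of 51 other splicing regulators and kinases 18 had a value and 0 differed by 2-fold in any exposed library. Of 16 nonsense-mediated decay and exon junction genes 10 had a value, and Rbm8a, a core of the exon junction complex, passed 2-fold in rotenone (21.7 against 50.6 in control) and deltamethrin (24.3). It stood nearly as low in chlorpyrifos (24.9) and carbaryl (27.2), at 34.1 in DDT and at 51.1 in imidacloprid.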

How the data were processed

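RNA of 7 cultures, 1 per group, was sequenced. Per the submitters' processing notes, reads were handled with HISAT2 2.0.1 on GRCm38, cutadapt 1.9.1 and bcl2fastq 2.17.1.14. The authors deposited, per the file headers, 1 table per library of transcript events with an FPKM each. The sources used here do not name the tool that made them. The files hold no counts, so the depth behind each value is unknown, and no interval is given.

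Distinct starts and ends were summed per gene ID, kept on the annotated strand, with GENCODE M21 as annotation. A gene with under 80% of its FPKM on lines where ID and coordinates named the same gene was left out of folds. Folds used a pseudocount of 1 FPKM and a minimum mean of 1 FPKM. Shares used exon or intron pairs with a mean sum of at least 1 FPKM. Genes were named at 2-fold in any comparison with a mean of at least 5 FPKM (at most 24), and exons and introns by the widest share range at a mean sum of at least 5 FPKM (at most 12 of each kind). The genes, lists and rules were chosen with earlier results of these data known. The scripts were tested on simulated data.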

Additional observations from a re-analysis of the deposited data

How the results depend on the processing

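No paired analysis was possible because each group had 1 library. The median log2 fold change of the splicing regulators moved by less than 0.0606, its SD over pairs of exposed libraries, in all 60 alternatives. The count of genes at 2-fold stayed within 1.5 times in 49 of 60. From start totals alone it was 0 in carbaryl, since Srsf1 then stood at -0.97. From end totals alone it was 2 in deltamethrin, with Tardbp added. The mean of both totals was also taken for all 37 genes with both totals and a resolved ID, which leaves out Hnrnpa3. The count was then 4 in chlorpyrifos (all genes 1.89%) and 3 in DDT (2.24%), carbaryl (2.23%) and deltamethrin (2.13%). This count added Celf1 in all 4, Srsf10 in all but carbaryl and Mbnl1 in carbaryl. Against the median of the 6 other libraries in place of control it was 1 in chlorpyrifos (Tardbp) and 0 in DDT, rotenone, deltamethrin and imidacloprid, and it stayed 1 in carbaryl with Rsrc1 in place of Srsf1 (-0.99). Rsrc1 then stood at 0.15, 0.26, 0.17, -0.061 and -0.084 in these 5 libraries, so its difference is that of control and carbaryl from the rest. The fold change of Tardbp in chlorpyrifos was between -2.47 and -2.25 on start totals, end totals, the other pseudocount, filter and annotation settings. Skipped exons at 20 points numbered 12 in chlorpyrifos and 13 in imidacloprid against the median of the other libraries. The 12 in chlorpyrifos were 12.5%, against 12.9% for all genes. The count stayed within 1.5 times in 28 of 30 alternatives, but its excess over all genes did not always hold. With inclusion over the start total, 22.6% of exons passed in chlorpyrifos, against 20.65% for all genes. In the other exposed libraries 16.1% to 19.35% did, each below all genes (20.7% to 21.5%). Retained introns, taken over the start total, numbered 3 in chlorpyrifos, 2 in rotenone and 3 in deltamethrin. A further alternative, chosen after seeing the data, required at least 1 FPKM in every library. They then numbered 5 in rotenone, 4 in carbaryl, 4 in deltamethrin and 5 in imidacloprid, and fewer introns (33) enter there. The shares over all genes under these settings are not given here. The intron counts alone therefore do not show whether introns of these genes still differed more often than those of all genes. Whether any difference would recur in a second culture cannot be told from 1 library per group.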

Other observations

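Alternative starts and ends of 3 further genes divided the libraries. Hnrnpf, a guanine-run binding hnRNP, used the start at chr6:117916981-117917071 at 128 FPKM in control, 10.8 in chlorpyrifos, 149 in DDT, 6.70 in rotenone, 146 in carbaryl, 9.28 in deltamethrin and 152 in imidacloprid. A start 5' of it (chr6:117906795-117907208) ran the other way, at 45.3 to 58.6 in chlorpyrifos, DDT, rotenone and deltamethrin and 0.945 to 5.27 in the other 3. DDT was high in both. The main start of Hnrnpk (chr13:58402393-58402487) carried 236 in control, 64.6 in chlorpyrifos, 230 in DDT, 142 in rotenone, 78.8 in carbaryl, 90.0 in deltamethrin and 69.3 in imidacloprid. In carbaryl an internal start annotated only in a retained-intron transcript (chr13:58394478-58394785) carried 216, against 52.1 to 86.1 in the others.

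Qk makes nuclear and cytoplasmic proteins through alternative last exons. Its end at chr17:10202601-10209631 carried 6.94 FPKM in rotenone and 31.4 to 39.7 in the other 6 libraries, and rotenone alone listed an unannotated end at chr17:10141741-10141757, at 39.6. The end at chr17:10210179-10215474 carried 13.3 to 18.4 in control, DDT, deltamethrin and imidacloprid and under 0.01 in chlorpyrifos, rotenone and carbaryl. These starts and ends were chosen after their values were seen.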
